A study of Mus musculus with 2 samples.

Results

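Cells of the retinal pigment epithelium (RPE) were taken from 2 single-cell RNA libraries of the mouse optic cup. A barcode was kept with at least 500 unique molecular identifiers (UMIs, each standing for 1 captured RNA molecule), at least 300 genes and at most 25% of UMIs from mitochondrial genes. It was counted as an RPE cell when at least 3 of Rpe65, Rgr, Rdh5, Lrat, Best1 and Stra6 had a UMI, when these 6 genes made up at least 0.3% of its UMIs, and when none of Mlana, C1qa, Cldn5, Trpm1, Slc6a9 and Krt5 had one. This gave 312 RPE cells of 62485 kept cells. The library labelled GFP held 199 of them among 39285 cells (0.507%, exact Clopper-Pearson 95% interval 0.439 to 0.582). The library labelled sponge held 113 among 23200 (0.487%, 0.402 to 0.585). The genes described are those outside the interferon and antigen presentation response.

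All mice were Abca4 knockouts, and both libraries come from dissociated optic cup. In each animal a vector labelled AAV2.8-Sponge.mir181 went under the retina of 1 eye and AAV2.8-GFP into the other, at 2 months of age, and tissue was analysed 4 months after treatment per the series text. An age of 4 months stands in the labels of both samples, which does not match that schedule. A sponge is an RNA with repeated binding sites that holds a microRNA away from its targets. Each group is 1 library, the number of mice in it and the promoter of the vectors are not given in the sources used here, and cells are not assigned to animals. There is therefore no replicate error and no test. Intervals cover counting error only, PCR and animal differences are outside them, and every difference is between 2 libraries and not shown to be between treatments.

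The RPE is the pigmented cell layer behind the photoreceptors. It regenerates the visual chromophore from vitamin A, engulfs shed outer segments and degrades them in lysosomes, passes glucose and lactate between the choroid and the retina, and lays down part of Bruch's membrane. Loss of Abca4, which clears retinoid by-products from photoreceptor discs, loads the RPE with lipofuscin. The microRNAs miR-181a and miR-181b repress messages that pair with their seed, and several of those messages serve mitochondrial turnover and cell survival.

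The 2 mature sequences, from RefSeq on GRCm38.p6, are those of the microRNAs that the sponge is meant to bind, with the seed (bases 2 to 8) in capitals. They share that seed, which pairs with TGAATGT in a target message. Each is encoded at 2 sites, on chromosome 1 (137966468 to 137966490 for miR-181a, 137966650 to 137966673 for miR-181b) and on chromosome 2 (38852741 to 38852763 and 38853845 to 38853868), on the plus strand.
mmu-miR-181a-5p: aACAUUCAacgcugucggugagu
mmu-miR-181b-5p: aACAUUCAuugcugucgguggguu

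The markers chose the cells, so their values are a description. In the RPE cells Rpe65, the isomerase of the visual cycle, had 4311 CPM (4170.02 to 4456) and 5090.5 CPM (4851 to 5338), where CPM is the UMIs of a gene per 1000000 UMIs of the summed cells and the bracket is an exact Poisson 95% interval. The first value of each pair is from the library labelled GFP and the second from that labelled sponge, here and in all that follows. Rgr, an opsin that helps to form the chromophore, stood at 5808 and 6816 CPM, and Rdh5, which oxidises retinol to the chromophore aldehyde, at 2303 and 3987 CPM. Lrat, which esterifies retinol, stood at 1174 and 640.05 CPM and Stra6, the retinol uptake receptor, at 219.96 and 162 CPM. Best1, a chloride channel gene, had 0 UMIs in both, so each cell was chosen on 5 genes. Outside the marker-bearing cells Rpe65 stood at 83.6 and 37.4 CPM. The cells with 3, 4 and 5 markers numbered 42, 86 and 71 in the first library and 61, 35 and 17 in the second. The marker share nearest the threshold was 0.297% and 0.286% in cells outside and 0.304% and 0.303% in cells inside.

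The exclusion genes removed most cells that bear the markers. Before exclusion 1046 cells (2.66%) and 464 cells (2.00%) bore them, and 847 (81.0%) and 351 (75.6%) of these were left out. Trpm1, a channel gene of bipolar cells and melanocytes, was detected in 670 and 248 of the marker-bearing cells, Mlana, a melanosome gene, in 423 and 205, and the glycine transporter gene Slc6a9 in 249 and 143. Cells left out were deeper, with medians of 6823 and 7824 UMIs against 3355 and 1862 UMIs in the RPE cells. Marker-bearing cells with over 20000 UMIs numbered 34 and 140, and the latter held 81.5% of the UMIs of all marker-bearing cells of the library labelled sponge. Summed values of that set in that library therefore rest mostly on these 140 cells. No doublet caller was run, so such cells may hold more than 1 cell, and whether the cells left out are RPE was not tested. For this reason the list medians and the leading genes are given in the RPE cells and, beside them, in all marker-bearing cells, a set that contains them.

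**Figure D1:**
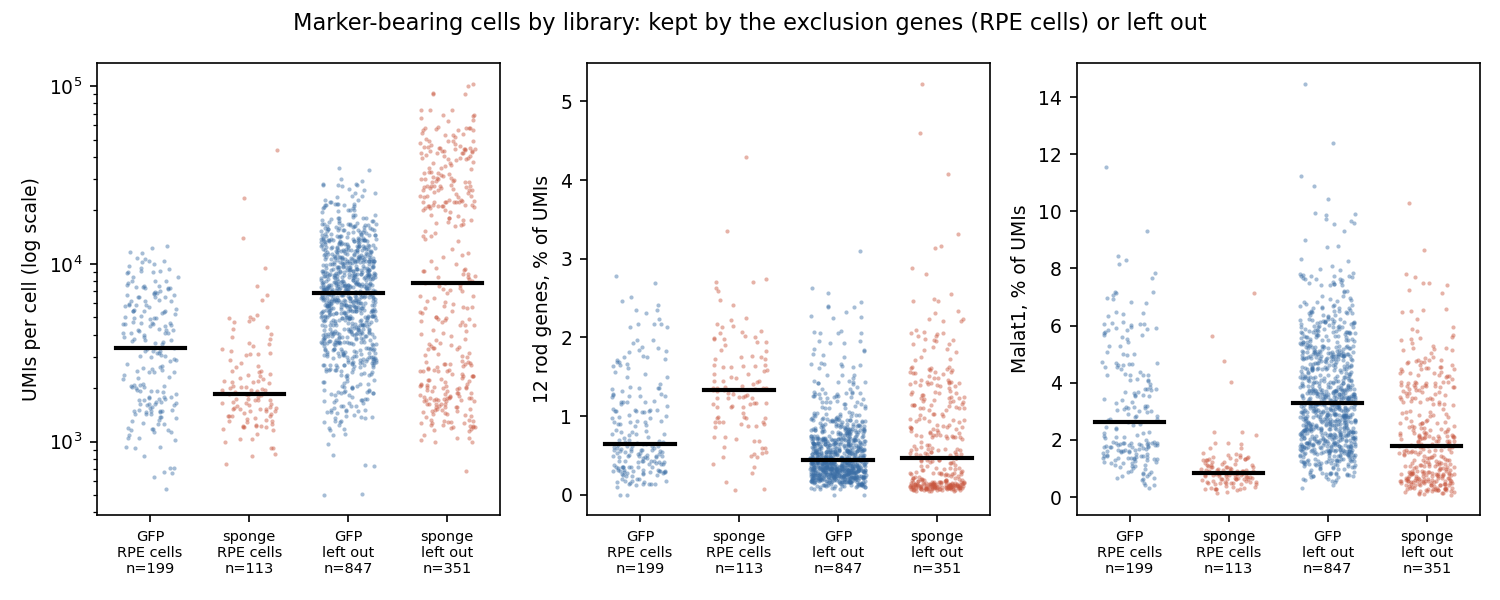
UMIs per cell (log axis), share of UMIs from 12 rod genes and share from Malat1 in marker-bearing cells, each point a cell and each black bar the median, for the RPE cells and for the cells left out by the exclusion genes. The RPE cells of the library labelled sponge have fewer UMIs (median 1862 against 3355), more rod RNA (median 1.34% against 0.646%) and less Malat1 (median 0.856% against 2.64%).

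The RPE cells of the 2 libraries also differed in what surrounds RPE RNA. The 12 rod genes took 0.617% and 1.03% of their UMIs, with 12 of 12 members higher in the library labelled sponge. Of the summed UMIs of all marker-bearing cells they took 0.438% and 0.272%. Per cell the direction was the other way, with median rod shares of 0.471% and 0.743% in all marker-bearing cells. There the rod list had a median log2 ratio (sponge over GFP) of -0.78 in summed UMIs. With cells thinned to the same number of UMIs it was 0.45. Malat1, a nuclear non-coding RNA, took 4.01% and 1.83% of the UMIs of the RPE cells. The deepest RPE cell of the library labelled sponge, with 43579 UMIs, held 13.0% of the summed UMIs of the RPE cells of that library. Without that cell Malat1 was 1.26% there. Ratios and list medians given below as without the deepest cell leave out the deepest RPE cell of each library, with 198 and 112 cells left. Fibroblast genes took 0.0247% and 0.00508%, red cell genes 0.00452% and 0.0144%, microglia and macrophage genes 0.00868% and 0.0117%, and Müller glia genes 0.139% and 0.165%. Of the 4 T and NK cell genes 3 and 2 were at 0, of the 7 endothelial genes 1 and 3, and the 6 exclusion genes were at 0 by the rule. The interferon and antigen presentation set took 0.521% and 0.786%. The part of depth, rod RNA, nuclear RNA and interferon state in the results below was not tested. The libraries share 287 kept barcodes, of which 7 are RPE cells in the library labelled GFP and 5 of these 7 bear the markers in the library labelled sponge as well. Those 5 have 541 to 713 UMIs in the first and 73216 to 100503 UMIs in the second. Barcode by barcode the first count is 0.708% to 0.739% of the second. Whether these 5 are separate cells of the library labelled GFP was not tested, and they are counted among its 199 RPE cells. Without the shared barcodes 0 of 30 named genes turned in sign, with a largest shift of 0.14 on the log2 scale, and 4 of 300 measured list members did.

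UMIs of eGFP, a feature of the deposited tables, were found nearly only in the library labelled sponge. Of 199 RPE cells of the library labelled GFP 0 had one, and the limit set by 3 counts is 1.51% of cells with a UMI, which does not limit the cells that carry the vector. Of 113 RPE cells in the other library 20 had one (17.7%, from 11.2% to 26.0%). After thinning each cell to 1000 UMIs the shares were 0 of 189 and 10 of 107 cells. Among kept cells that do not bear the markers the shares were 0.00523% and 2.49%, at median depths of 2384 and 2971 UMIs. This goes against the label of the control vector. The labels do not say if eGFP is part of the sponge construct, and that case and an exchange of the labels cannot be told apart from these values. Were the labels exchanged, every direction given here would turn, so groups are named throughout as the labels have them.

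Of 3901 genes with at least 50 counts over both libraries, 100 (2.56%) were at least 2-fold higher and 313 (8.02%) at least 2-fold lower in the sponge library's RPE cells, and the median log2 ratio of sponge over GFP over all genes was -0.04. In all marker-bearing cells, with 12433 genes measured, 242 (1.95%) were higher and 1619 (13%) lower, with a median of -0.16. Of all measured genes 47.2% had a ratio above 0 in the RPE cells and 39.3% in all marker-bearing cells. Counts of genes above or below 0 in the lists that follow stand beside these shares. Of the 100 higher genes 6 belonged to the interferon set, 69 kept their sign in all marker-bearing cells and 17 were past 2-fold there, which is 7.02% of the 242. The eGFP feature is counted among the 100, the 69, the 17 and the 242. Of the 313 lower genes 269 kept their sign and 73 were past 2-fold, 4.51% of the 1619. The lower genes were long. Leaving out interferon and mitochondrial genes, the median genomic span was 161 kb for the genes at least 2-fold lower, 13.5 kb for those at least 2-fold higher and 38.8 kb for all measured, and 61.6% of the lower genes spanned over 100 kb against 25.5% of all. Across all marker-bearing cells the medians were 69.9, 8.90 and 27.6 kb.

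**Figure D2:**
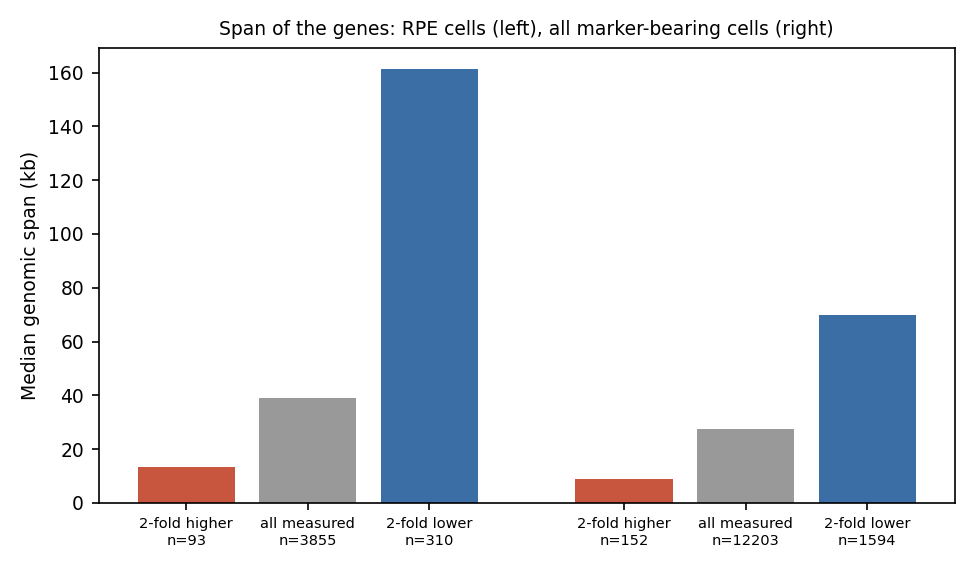
Median genomic span in kb (bars from 0) of genes at least 2-fold higher, of all measured genes and of genes at least 2-fold lower (sponge over GFP), for the RPE cells and for all marker-bearing cells. The lower genes have a median of 161 kb in the RPE cells, and the higher genes 13.5 kb.

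Genes of retinoid handling outside the rule were close between the libraries in the RPE cells and mostly higher in all marker-bearing cells. Rrh, the opsin peropsin of RPE microvilli, stood at 185 CPM (156 to 216) and 293 CPM (238 to 357), a log2 ratio of 0.67 (0.29 to 1.04), and at 170.3 and 263 CPM in all marker-bearing cells. It was higher beyond the counting error in both sets, at under 2-fold. Ttr, the thyroxine and retinol carrier transthyretin, was the most abundant list member at 35971 and 39208 CPM. Rlbp1, the chromophore-binding protein CRALBP, stood at 1432 and 1463 CPM and the retinol dehydrogenase gene Rdh10 at 1063 and 1074 CPM, with intervals of the ratio that span 0. Of 6 measured members 5 were above 0, none was past 2-fold, and their median was 0.08. In the wider set 9 of 12 were above 0 with a median of 0.34, while in the RPE cells without the deepest cell the median was -0.03.

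Among the transporters Slc16a8 and Bsg had the highest ratios. Slc16a8, the lactate transporter MCT3 of the basolateral membrane, stood at 414 CPM (371 to 461) and 715 CPM (627 to 811) (chromosome 15, 79251014 to 79254761, mm10), a log2 ratio of 0.79 (0.54 to 1.03). Over the marker-bearing cells as a whole it stood at 371 and 897 CPM, a ratio of 1.27 (1.21 to 1.34), and in other kept cells at 8.5 and 7.28 CPM. Bsg, the chaperone basigin that brings lactate transporters to the membrane, stood at 1325 CPM (1247 to 1406) and 2345 CPM (2184 to 2515), a ratio of 0.82 (0.69 to 0.96), and at 1359.6 and 3433 CPM in all marker-bearing cells. The library labelled sponge was the higher for both genes in both sets of cells, also without the deepest cell (0.74 and 0.81) and in cells with at most 1% rod RNA (0.98 and 1.08). Bsg was higher in other kept cells as well, at 378 and 656 CPM. Slc16a1, the lactate transporter MCT1 of the apical side, stood at 229.7 and 266 CPM, a ratio of 0.22 (-0.17 to 0.58), and at 201 and 302 CPM in all marker-bearing cells. The membrane carbonic anhydrase gene Car14 stood at 401 and 469.6 CPM and 381 and 667 CPM. The glucose transporter gene Slc2a1 stood at 254 and 356 CPM and Atp1b1, the beta subunit of the sodium pump, at 507 and 703 CPM, both with intervals above 0, and in the wider set at 276 and 452 CPM and 462 and 640.2 CPM.

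Some channel and ion carrier genes were lower in the RPE cells of the library labelled sponge. Slc12a2, the sodium, potassium and chloride cotransporter, stood at 248 and 111 CPM, a log2 ratio of -1.15 (-1.71 to -0.65). Kcnj13, the apical potassium channel Kir7.1, stood at 717 and 559 CPM and Car12, another membrane carbonic anhydrase, at 302 and 188 CPM. In all marker-bearing cells Kcnj13 stood at 646 and 716 CPM and Car12 at 275 and 293 CPM, so their direction turned, while Slc12a2 stayed lower at 239.5 and 199 CPM. Of 13 measured channel and transporter genes 8 were above 0 and 1 was at least 2-fold lower, with a median of 0.22, which was -0.09 without the deepest cell. Across all marker-bearing cells 12 of 16 were above 0 with a median of 0.42.

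Most transcription factors of RPE identity were lower in the RPE cells of the library labelled sponge. Mitf, which drives pigment cell genes, stood at 368 CPM (327 to 412) and 108 CPM (75.4 to 149) (chromosome 6, 97807052 to 98021349), a log2 ratio of -1.75 (-2.31 to -1.27). Sox9, a partner in visual cycle gene control, stood at 413 and 135 CPM, a ratio of -1.60 (-2.10 to -1.17), and Otx2, an RPE and photoreceptor factor, at 459 and 227 CPM, a ratio of -1.01 (-1.39 to -0.66). Crx, a photoreceptor factor, was higher at 78.2 and 149.5 CPM, and Pax6, an eye field factor, stood at 53.8 and 59.8 CPM with an interval that spans 0. Of 6 measured members 2 were above 0 and 3 were at least 2-fold lower, and the median was -0.85. In the wider set Mitf stood at 321 and 269.5 CPM, Sox9 at 414 and 325 CPM and Otx2 at 403 and 443 CPM, with ratios of -0.25, -0.35 and 0.14, and the list median was -0.31. Mitf and Sox9 kept their direction and Otx2 did not, and none of these 3 was past 2-fold in the wider set. The ratio of Mitf was -2.44 after thinning and -0.70 where Mlana and Trpm1 did not exclude cells.

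Receptors for outer segments were lower in the RPE cells, and a bridging ligand was not. Mertk, the receptor kinase that triggers engulfment, stood at 129.5 CPM (106 to 157) and 53.8 CPM (31.9 to 85.1), a log2 ratio of -1.23 (-2.08 to -0.54). Itgav, the alpha V integrin that binds shed segments, stood at 675 and 383 CPM, a ratio of -0.81 (-1.11 to -0.54), and its partner Itgb5 at 50.1 and 35.9 CPM, with an interval that spans 0. Gas6, a ligand of Mertk, stood at 51.3 and 56.8 CPM in the RPE cells, and at 34.5 and 66.2 CPM in all marker-bearing cells, a ratio of 0.94 (0.72 to 1.17). There Itgav stood at 677 and 553 CPM and Mertk at 128 and 121 CPM, a ratio of -0.07 whose interval spans 0. Of 7 measured members 5 were below 0 with a median of -0.36, and in all marker-bearing cells the median was -0.07. Junction and polarity genes had 6 of 7 measured members below 0 with a median of -0.41, and 7 of 11 with a median of -0.25 in all marker-bearing cells. Of all measured genes 47.2% and 39.3% were above 0 in these 2 sets of cells. Cdh3, the P-cadherin of RPE junctions, stood at 95.3 and 26.9 CPM, a ratio of -1.76 (-3.01 to -0.83), and the polarity gene Pard3 at 152 and 62.8 CPM. Over the marker-bearing cells as a whole Cdh3 stood at 83 and 88.3 CPM and Pard3 at 147 and 95 CPM, and ezrin (Ezr), which builds apical microvilli, turned from 422 and 317 CPM in the RPE cells to 395 and 632 CPM.

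Genes of Bruch's membrane and of secreted factors were mostly lower in the RPE cells. Timp3, an inhibitor of matrix proteases held in Bruch's membrane, stood at 2321 CPM (2217 to 2427) and 1271 CPM (1153 to 1398), a log2 ratio of -0.87 (-1.02 to -0.72). The short-chain collagen gene Col8a1 stood at 1245 and 598 CPM, a ratio of -1.05 (-1.28 to -0.84). Bmp4, a secreted growth factor, stood at 368 and 242 CPM, and Igfbp5, which binds insulin-like growth factors, at 279.8 and 132 CPM. Of 12 measured members 10 were below 0 and 2 at least 2-fold lower, with a median of -0.37. The direction was not shared by the summed UMIs of the wider set. There Timp3 stood at 2374 and 2646 CPM, Col8a1 at 1104 and 1309 CPM and Bmp4 at 363 and 404 CPM, and the list median was 0.16. After thinning, the list median in the wider set was -0.09, below 0 as in the RPE cells. In summed UMIs Igfbp5 stayed lower in the wider set at 311 and 211 CPM. Cst3, the protease inhibitor cystatin C, was higher in both sets with 26155 and 31787 CPM in the RPE cells and 24959 and 39438 CPM in all marker-bearing cells. Vegfa, which keeps the choroidal vessels, stood at 253 and 200.4 CPM, with an interval of the ratio from -0.76 to 0.07.

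**Figure D3:**
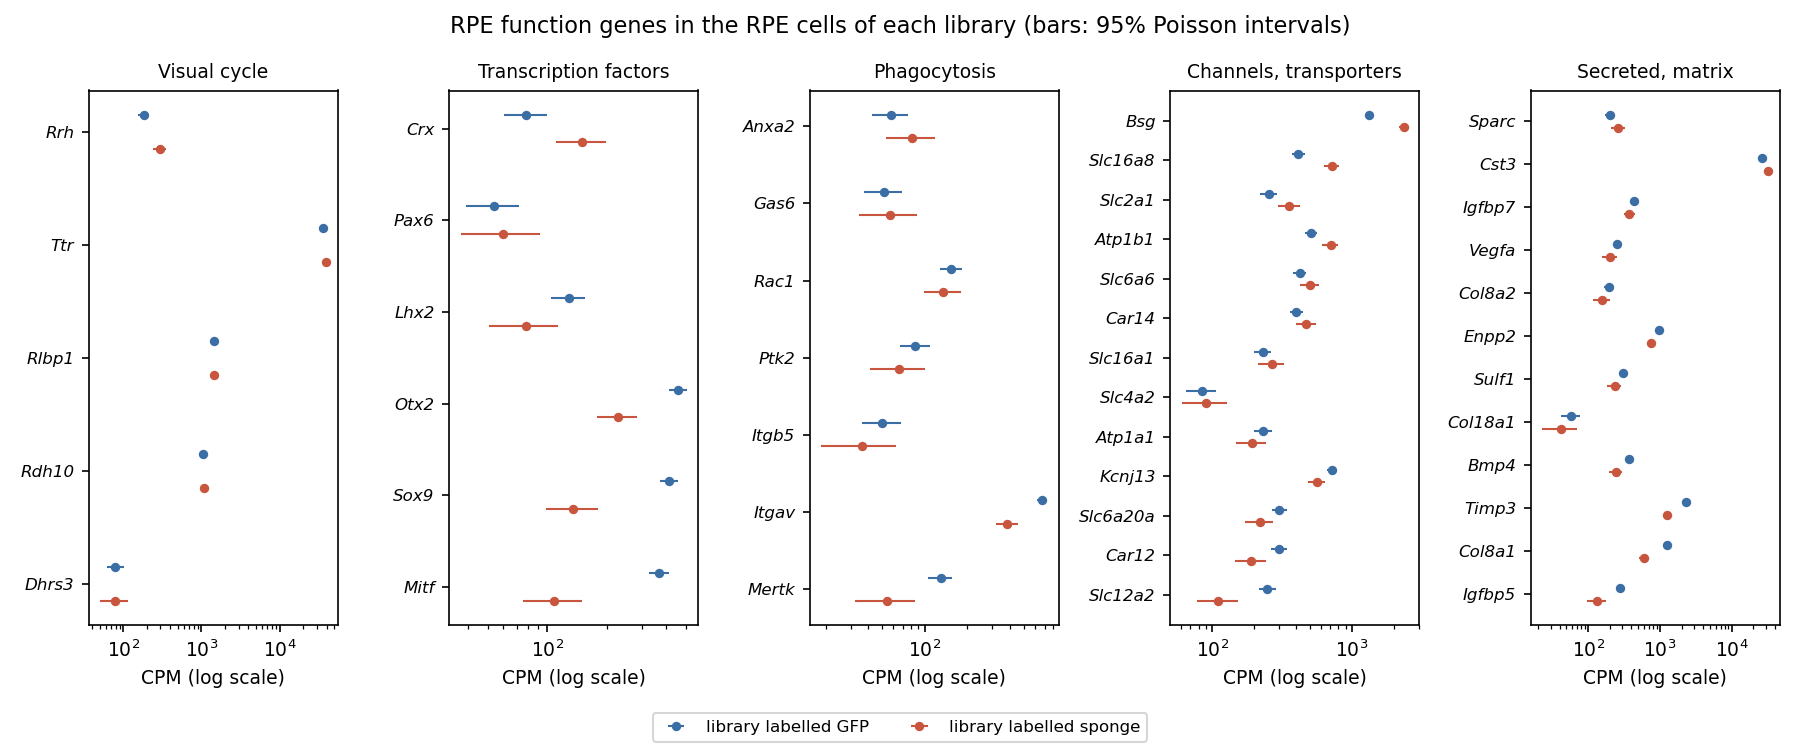
Level in CPM (log axis) of measured genes of 5 lists of RPE function in the RPE cells, all measured members but 1 visual cycle gene, blue for the library labelled GFP and red for the library labelled sponge, with exact 95% Poisson intervals. Bsg and Slc16a8 lie higher in the library labelled sponge, and Mitf, Sox9, Otx2, Mertk, Timp3 and Col8a1 lower.

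Among lipid genes Apoe was higher in the library labelled sponge in both sets of cells. Apoe, the apolipoprotein that the RPE secretes with lipid, stood at 3733 CPM (3602 to 3868) and 8054 CPM (7753 to 8365) (chromosome 7, 19696109 to 19699188), a log2 ratio of 1.11 (1.03 to 1.18), and at 3843 and 7253 CPM in all marker-bearing cells, a ratio of 0.92 (0.90 to 0.94). The groups stand apart in both sets, also without the deepest cell (1.07) and in cells with at most 1% rod RNA (1.30). Apoe was higher in other kept cells too, at 2109 and 3870.4 CPM. Most other measured lipid export genes did not share this: the cholesterol exporter gene Abca1 stood at 72.1 and 38.9 CPM and Soat1, which esterifies cholesterol, at 119 and 65.8 CPM, and the list had 2 of 5 measured members above 0. In the wider set Abca1 stood at 69.3 and 81.5 CPM and Soat1 at 138 and 116 CPM, and 6 of 9 members were above 0 with a median of 0.06. After thinning, the median of this list in the wider set was -0.17. Genes of cholesterol synthesis and uptake had 2 of 9 measured members above 0 with a median of -0.26, and 2 of 15 with a median of -0.39 in all marker-bearing cells. Among them Fdft1, the squalene synthase gene, stood at 84.3 and 44.9 CPM.

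Metal handling divided by family. The metallothionein genes, which bind zinc and copper, were lower for 3 of 3 members: Mt1 at 5330.2 CPM (5173 to 5491) and 3176 CPM (2988 to 3373), Mt2 at 667 and 419 CPM and Mt3 at 860.3 and 473 CPM, with ratios of -0.75 (-0.84 to -0.65), -0.67 and -0.86. In all marker-bearing cells the ratios were -0.47, -0.39 and -0.75, and Mt1 was lower in other kept cells too, at 1761 and 1321 CPM. The ferritin genes were higher. Fth1, the heavy chain, stood at 2225 CPM (2124 to 2329.8) and 3069 CPM (2884 to 3262). Ftl1, the light chain, stood at 1233 and 1857 CPM. Their log2 ratios were 0.46 (0.35 to 0.57) and 0.59 (0.44 to 0.74), and in all marker-bearing cells 0.57 and 0.72. Trf, the iron carrier transferrin, stood at 5643 and 4974 CPM in the RPE cells and 5996 and 8636 CPM in all marker-bearing cells, with opposite directions. Cp, the copper oxidase ceruloplasmin, stood at 193 and 119.6 CPM and 223 and 47.3 CPM, lower in the library labelled sponge in both sets.

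Several lysosomal proteases were higher in the library labelled sponge. Ctsd, the aspartic protease cathepsin D that digests opsin in the RPE, stood at 558 CPM (508 to 612) and 1148 CPM (1036 to 1269) (chromosome 7, 142375911 to 142388038), a log2 ratio of 1.04 (0.84 to 1.24), and at 642 and 1716 CPM in all marker-bearing cells, a ratio of 1.42 (1.37 to 1.47). Ctsz, cathepsin Z, stood at 39.1 CPM (26.7 to 55.2) and 129 CPM (93.1 to 173), a ratio of 1.71 (1.02 to 2.43), and at 60.1 and 111 CPM in the wider set. The ratio of Ctsd was under 2-fold with cells weighted equally (0.86), at a marker share of at least 1% (0.89), where Mlana and Trpm1 did not exclude cells (0.94) and in cells with at most 1% interferon and antigen RNA (0.71). Ctsl, cathepsin L, stood at 209 and 341 CPM. The lysosomal membrane gene Cd63 stood at 619.5 and 954 CPM and, in the wider set, at 649.8 and 1079.8 CPM. Not every member differed beyond counting error: Ctsb, cathepsin B, stood at 258 and 233 CPM and Lamp2, a membrane protein of lysosomes, at 181 and 153 CPM, with intervals that span 0. Of 19 measured members 14 were above 0 and 2 past 2-fold, with a median of 0.17, and in all marker-bearing cells 23 of 29 with a median of 0.32. The list stood likewise in other kept cells, where its median was 0.33, and Ctsd was at 121 and 221 CPM.

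The medians of the antioxidant and proteasome lists were above that of all genes in both sets. Prdx6, a peroxidase that repairs membrane lipids, stood at 216 CPM (186 to 251) and 422 CPM (355 to 497), a log2 ratio of 0.96 (0.63 to 1.29), and Gpx4, which reduces lipid peroxides, at 3382 CPM (3258 to 3511) and 4208 CPM (3991 to 4434), a ratio of 0.32 (0.22 to 0.41). Prdx5, a mitochondrial peroxiredoxin, stood at 221 and 335 CPM. Catalase (Cat) was the exception past 2-fold in the RPE cells at 134 and 47.9 CPM, a ratio of -1.45 (-2.35 to -0.73), and stood at 112 and 121 CPM in all marker-bearing cells. The antioxidant list had 13 of 17 measured members above 0 with a median of 0.35, and 20 of 28 with a median of 0.42 in the wider set. Of the constitutive proteasome genes 15 of 19 were above 0 with a median of 0.36, and 20 of 20 with a median of 0.52 in all marker-bearing cells. Psmb1 stood at 139 and 263 CPM and Psmb5, the subunit with chymotrypsin-like activity, at 143 and 236 CPM. Genes of the unfolded protein response had 8 of 12 above 0 with a median of 0.10, and 14 of 18 with a median of 0.31 in the wider set, among them Hspa5, the chaperone BiP, at 262 and 356 CPM and 262 and 404 CPM. In other kept cells the medians of the antioxidant and proteasome lists were 0.42 and 0.30.

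Most glycolytic genes were higher in the RPE cells, and the list divided in the summed UMIs of the wider set. Pkm, pyruvate kinase, stood at 264 CPM (229.9 to 302) and 526 CPM (451 to 610.2), a log2 ratio with an interval from 0.70 to 1.29, Ldha, the lactate dehydrogenase A gene, at 138 and 269 CPM and Gapdh at 546 and 930.2 CPM. Of 15 measured members 13 were above 0 with a median of 0.64, the highest median of the RPE function and stress lists in the RPE cells. In the summed UMIs of all marker-bearing cells the median was 0.17, with Pkm at 239 and 290.5 CPM and Ldha at 128 and 115 CPM. After thinning, the median of the list in all marker-bearing cells was 0.51. Ldhb, which favours conversion of lactate to pyruvate, was higher in both sets, at 235 and 368 CPM and 226 and 440.3 CPM. Hk2, an inducible hexokinase gene, was lower in both, at 125 and 68.8 CPM and 114 and 44.4 CPM. Rods express these genes as well. In RPE cells with at most 1% rod RNA the median was 0.54, and in other kept cells Pkm stood at 354 and 415 CPM.

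Nuclear genes of respiration showed no common direction, and mitochondrially encoded genes were mostly lower in the wider set. Of 30 nuclear genes of oxidative phosphorylation 17 were above 0 and 13 below, with a median of 0.10. Atp5b, the catalytic subunit of ATP synthase, stood at 382 and 550.3 CPM and Cox4i1 at 1096 and 1364 CPM, while Ndufc1 stood at 566 and 299 CPM and Cox7a2 at 638 and 395 CPM. These 4 genes kept their direction in all marker-bearing cells, with ratios of 0.45, 0.42, -0.61 and -0.38. The 13 mitochondrially encoded genes had a median of -0.09, with 8 below 0, mt-Co3 at 19488 and 18017 CPM and mt-Nd6 at 501 and 215 CPM. In all marker-bearing cells 12 of these 13 were below 0 and 4 at least 2-fold lower, with a median of -0.26, and in other kept cells the median was -0.68. Fatty acid oxidation and ketogenesis genes had 5 of 9 measured members above 0 with a median of 0.07, and 14 of 15 with a median of 0.48 in all marker-bearing cells. Acaa2, the last enzyme of the mitochondrial spiral, stood at 86.8 and 167 CPM, a ratio of 0.95 (0.42 to 1.47), and at 81.7 and 184 CPM in the wider set.

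Most heat shock and immediate early genes stood lower in the RPE cells of the library labelled sponge, and so did Lcn2. Hspa1b, an inducible heat shock protein, stood at 446 CPM (401 to 494) and 65.8 CPM (41.2 to 99.6), a log2 ratio of -2.73 (-3.45 to -2.14), and at 457 and 149.96 CPM in all marker-bearing cells. Its ratio ran from -1.71 with cells weighted equally to -4.71 in cells with at most 1% rod RNA. Its near-identical neighbour Hspa1a stood at 172 and 65.8 CPM, and how reads were divided between the 2 copies is uncertain. Hsph1, a partner of these chaperones, stood at 106 and 38.9 CPM. Jun, an immediate early factor, stood at 540.1 and 317 CPM in the RPE cells and turned to 655 and 989 CPM in the wider set, while Fos stood at 433 and 365 CPM. Of 21 measured immediate early and heat shock genes 16 were below 0 and 4 at least 2-fold lower, with a median of -0.44, against a median of -0.07 in all marker-bearing cells and 0.81 in other kept cells. Lcn2, a secreted iron-trapping protein, stood at 117 and 35.9 CPM in the RPE cells, at 156 and 27.9 CPM in all marker-bearing cells and at 461 and 31.7 CPM in other kept cells.

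Keratins of simple epithelia were higher. Krt18 stood at 426 CPM (383 to 474) and 733 CPM (644 to 830.5), a log2 ratio of 0.78 (0.54 to 1.02), and Krt8, with which it pairs in filaments, at 92.9 CPM (73.2 to 116) and 215 CPM (168 to 271), a ratio of 1.21 (0.73 to 1.70). In the wider set they stood at 403 and 941 CPM and 115 and 251 CPM, and in other kept cells at 51.5 and 67.5 CPM and 15.8 and 20.6 CPM. Without the deepest cell the ratios in the RPE cells were 0.64 and 0.87. Genes linked to a mesenchymal shift had no shared direction, with 6 of 10 measured members above 0 in the RPE cells and 5 of 14 in the wider set, where 5 were at least 2-fold lower and the median was -0.40. Vim, vimentin, stood at 109.98 and 221 CPM and 146 and 207 CPM, and Zeb2, a repressor of epithelial genes, at 219.96 and 86.7 CPM and 254 and 215 CPM, the RPE cells first. Pigment genes had 3 of 7 measured members above 0 with a median of -0.27. Dct, a melanin synthesis enzyme, stood at 558 and 344 CPM, a ratio of -0.69 (-1.01 to -0.40), and at 1125 and 581 CPM in all marker-bearing cells, and Tyrp1, another enzyme of that path, at 68.4 and 114 CPM. Since Mlana excluded cells, pigment genes are partly set by the rule.

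**Figure D4:**
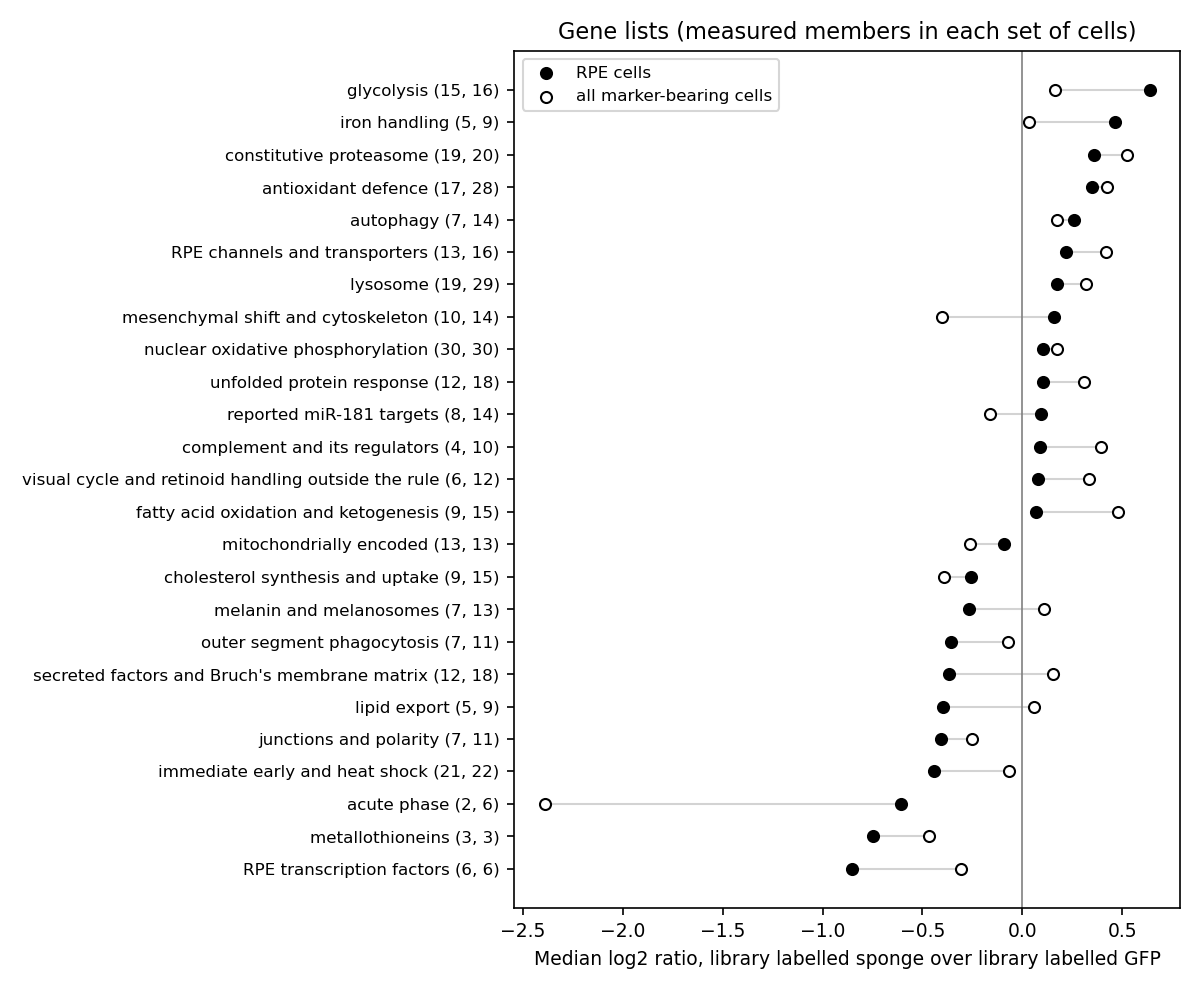
Median log2 ratio (library labelled sponge over library labelled GFP) of the measured members of each list in the RPE cells (filled) and in all marker-bearing cells (open), with the number of measured members in each set in brackets. Glycolysis has the highest median in the RPE cells at 0.64 and the transcription factors the lowest at -0.85. In summed UMIs the mesenchymal, matrix, pigment, lipid export and miR-181 target lists have medians on opposite sides of 0 in the 2 sets. After thinning, the matrix, pigment and lipid export lists had medians of -0.09, -0.24 and -0.17 in all marker-bearing cells, below 0 as in the RPE cells. The mesenchymal and miR-181 target lists, at -0.07 and -0.26, stayed on the opposite side.

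Of 24 function, stress and target lists with at least 3 measured members, 14 had a median above 0 in the RPE cells. Among the 15 genes ranked highest by the interval bound nearest 0, Igfbp2 came first. Igfbp2, which binds insulin-like growth factors, stood at 36.7 CPM (24.7 to 52.3) and 254 CPM (203 to 314) (chromosome 1, 72824503 to 72852474), a log2 ratio of 2.78 (2.18 to 3.45), and at 48.8 and 154 CPM in all marker-bearing cells, a ratio of 1.66 (1.49 to 1.84). It was higher in other kept cells too, at 13.8 and 46.9 CPM. Its ratio was 2.06 in RPE cells with at most 1% interferon and antigen RNA, 1.93 at a marker share of at least 1%, 1.51 where Mlana and Trpm1 did not exclude cells and 3.99 after thinning. Chil1, a secreted chitinase-like protein, stood at 94.1 CPM (74.3 to 118) and 248 CPM (198 to 308) (chromosome 1, 134182176 to 134190181), a ratio of 1.40 (0.93 to 1.87), and at 96.5 and 171 CPM in the wider set, against 34.2 and 25.3 CPM in other kept cells. In RPE cells with at most 1% of UMIs in the interferon and antigen presentation set, however, its ratio was 0.09, in those with a marker share of at least 1% it was 0.24, and after thinning it was 0.53. Abhd8, a hydrolase gene, stood at 34.2 and 105 CPM and 35.5 and 78.7 CPM. Glrx3, an iron-sulphur glutaredoxin, stood at 31.8 and 114 CPM, Hagh, which detoxifies methylglyoxal adducts, at 31.8 and 105 CPM and the dynein cofactor gene Nudc at 45.2 and 132 CPM. Over the marker-bearing cells as a whole their ratios were 0.50, 0.60 and 0.33, the same direction at under 2-fold.

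Other genes among these 15 are known from photoreceptors or had a ratio near or below 0 in the wider set. Guca1b, Grk1 and Rtbdn, which encode a guanylate cyclase activator, rhodopsin kinase and retbindin of photoreceptors, stood at 92.9 and 254 CPM, 56.2 and 159 CPM and 68.4 and 176 CPM in the RPE cells. In all marker-bearing cells they stood at 71.6 and 55 CPM, 49.3 and 32.4 CPM and 55.1 and 34.7 CPM, and in RPE cells with at most 1% rod RNA their ratios were 0.54, 0.06 and 0.42. In the summed UMIs of the RPE cells and of all marker-bearing cells their direction was that of the rod genes. In the cells with at most 1% rod RNA the rod list had a median of -0.11. Gm42418, Cmss1 and Camk1d stood at 13737 and 28369 CPM, 1067 and 2447 CPM and 829.7 and 1854 CPM, and in all marker-bearing cells their ratios were -0.19, 0.05 and -0.17. Their levels in other kept cells were 19780.2 and 17061 CPM, 1466 and 1452 CPM and 1253 and 1375 CPM.

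Lalba had the lowest ratio of the named genes. Lalba, the milk protein alpha-lactalbumin, had 279 and 4 UMIs in the RPE cells, 341 CPM (302 to 383) and 12 CPM (3.26 to 30.6) (chromosome 15, 98480400 to 98482721), a log2 ratio of -4.67 (-6.72 to -3.46). Across all marker-bearing cells it stood at 250.2 and 45 CPM, a ratio of -2.47 (-2.65 to -2.30), and in other kept cells at 3.5 and 0.44 CPM. With cells weighted equally its ratio was -3.51 and after thinning -2.81. Chrm3, a muscarinic acetylcholine receptor gene, stood at 196 and 35.9 CPM and 188 and 76.2 CPM, and Abhd2, a lipid hydrolase gene, at 1034 CPM (965 to 1106) and 335 CPM (276 to 403) and 997 and 559 CPM. Xist, the non-coding RNA of the inactive X chromosome, stood at 1551 and 446 CPM and 1600.3 and 843 CPM. Its antisense gene Tsix stood at 262 and 80.8 CPM in the RPE cells, and the division of reads between them is uncertain where strand was not stated to be used. Lalba, Chrm3, Abhd2, Xist and Gm10076 were lower in both sets. Fhit, Ankfn1, Etl4, Maml2, Frmpd4, Gm45895, 4430402I18Rik and Gm30835 were at least 2-fold lower in the RPE cells, but in all marker-bearing cells their ratios ran from -0.40 to 0.11, with Ankfn1 at 527 and 567 CPM and Fhit at 322 and 258 CPM. Without the deepest cell the ratios of Ankfn1 and Frmpd4 were -3.07 and -2.59 in the RPE cells, against -2.04 and -1.93 with it.

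**Figure D5:**
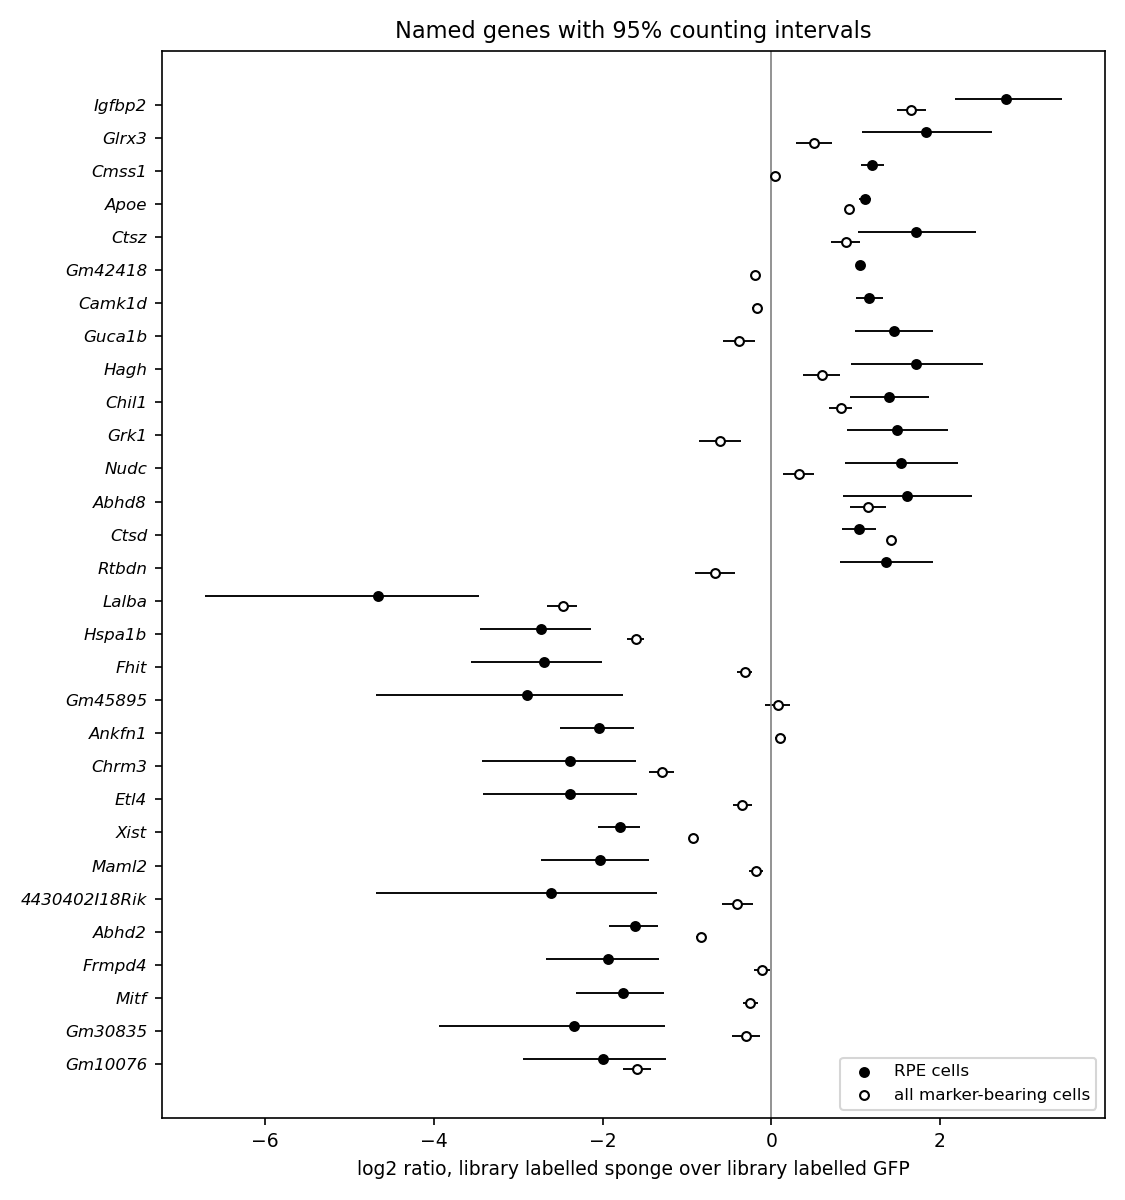
Log2 ratio (library labelled sponge over library labelled GFP) of the 15 genes ranked highest and the 15 ranked lowest in the RPE cells, filled for the RPE cells and open for all marker-bearing cells, with exact binomial 95% counting intervals as lines. Igfbp2, Apoe, Ctsd and Abhd8 stay near or above 0.92 in both sets, and Lalba, Hspa1b, Chrm3 and Gm10076 stay below -1.

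Cells with eGFP were compared with cells without it inside the library labelled sponge, all thinned to 1000 UMIs. Among RPE cells 19 had an eGFP UMI before thinning and 88 had none, against 189 cells of the library labelled GFP. Apoe stood at 9211 CPM (7896 to 10681) in the cells with eGFP, 7216 CPM (6666 to 7800) in those without and 3444 CPM (3185 to 3720) in the library labelled GFP. Ctsd stood at 947 CPM (561 to 1497), 1000 CPM (802 to 1232) and 466 CPM (373 to 574), and Slc16a8 at 526, 602 and 307 CPM. For Ctsd and Slc16a8 the 19 cells with eGFP had intervals that overlapped both other groups, while the cells without eGFP stood above the library labelled GFP. Rod genes took 1.32%, 1.40% and 0.874% of UMIs. Of the 137 marker-bearing cells with eGFP 71 had over 20000 UMIs before thinning, so many are cells that may hold more than 1 cell. Among all marker-bearing cells, with 136, 319 and 1030 cells, Ctsd stood at 1831 CPM (1611 to 2073), 1097 CPM (985 to 1218) and 568 CPM (523 to 616). There the cells with eGFP had less rod RNA than those without (0.567% against 1.02%) and more interferon and antigen RNA (1.81% against 0.851%). A cell without an eGFP UMI may carry the vector below detection, and the cells of 1 library are no replicates.

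Reported targets of miR-181 had no common direction. Of 14 listed targets 8 were measured in the RPE cells, 4 above and 4 below 0, none past 2-fold, with a median of 0.09. In all marker-bearing cells 5 of 14 were above 0 with a median of -0.16, where 39.3% of all measured genes were above 0. Xiap, an inhibitor of caspases, stood at 203 and 239 CPM and Mcl1, a survival factor of mitochondria, at 91.6 and 56.8 CPM, with intervals of the ratio that span 0. Coq10b, a coenzyme Q binding protein, stood at 50.1 and 71.8 CPM. Nrf1, a master factor of mitochondrial genes, had 39 and 7 UMIs, below the minimum, with a ratio of -1.11 (-2.59 to -0.01), and -0.61 (-0.86 to -0.35) in all marker-bearing cells. A 7-base match to the seed was found in the annotated 3′ UTR (GENCODE M21) of 5 of the 14 listed targets, Bcl2, Bcl2l11, Xiap and Atm among them. The other 9 had none, Nrf1, Mcl1 and Coq10b included. The site of Bcl2, an anti-apoptotic gene, and the first site of Xiap are given, with the match in capitals, as listed targets that carry the pairing letters. In Bcl2 the match starts at base 3427 of a UTR of 5086 bases, and in Xiap at base 36 of 4672.
Bcl2: ataatcaggacTGAATGTagataatgggt
Xiap: cttgctctaatTGAATGTgtgatgggagc

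Bcl2 stood at 41.5 and 38.9 CPM in the RPE cells and at 47.7 and 48.2 CPM in all marker-bearing cells. The letters TGAATGT, searched on the sense strand, occur in 3425 of 21489 genes with an annotated 3′ UTR (15.9%). In the RPE cells 871 measured genes with the match had a median log2 ratio of -0.16, and 2898 without it a median of -0.00. Of the former 1.26% and of the latter 2.73% were at least 2-fold higher in the library labelled sponge. In the wider set the medians were -0.29 for 2245 genes and -0.10 for 9053. Genes with the match were thus on the lower side of those without it in both sets. UTR length, which makes a match more likely, was not adjusted for, and a match of letters is not a shown site.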

How the data were processed

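Single-cell 3′ RNA was measured in 1 library per group. Deposited values are whole UMI counts per gene and barcode, per the file headers. Cell Ranger 7.0.0 and mm10 are named in the submitters' processing notes, and other settings are not given in the sources used here. Of 32286 features 32158 matched GENCODE M21, which gave coordinates, spans and UTRs.

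Kept barcodes numbered 39285 and 23200, with 123040365 and 132067896 UMIs over all barcodes of the libraries labelled GFP and sponge. UMIs of the RPE cells were summed per library (818350 and 334349) and scaled to CPM with exact Poisson 95% intervals. Log2 ratios had 0.5 added to both counts and exact binomial intervals, and a gene was measured with at least 50 counts over both libraries. No test was possible. Named genes lay outside the interferon and antigen presentation set, the 6 markers, mitochondrial genes and eGFP, had at least 20 CPM in the higher library and there at least the CPM of other kept cells. They were the 15 highest and 15 lowest by the interval bound nearest 0, plus list members. Alternatives changed scaling, cell filters, depth, exclusion genes and count minimum. Members and lists were chosen with earlier results of these data known. No doublet caller was run. Python 3.11.15, numpy 2.4.6, scipy 1.17.1, pandas 2.3.3 and matplotlib 3.10.9 were used, and the statistics were tested on simulated data. A few list members are not reported here by name, though the counts and medians of their lists include them.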

Additional observations from a re-analysis of the deposited data

How the results depend on the processing

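No paired analysis was possible because each group is 1 library, and for the same reason no replicate could be left out. The genes at least 2-fold higher numbered 100 of 3901 measured, 18 of 815 after thinning to 1000 UMIs and 51 of 2585 at a marker share of at least 1%. They numbered 369 of 7229 and 10 of 792 at a minimum of 20 and 200 counts. Without exclusion genes they were 242 of 12433, and 224 of 11978 without them at 5000 UMIs or more. The lower genes numbered 313 of 3901, 86 of 815 after thinning, and 685 of 7229 and 70 of 792 at 20 and 200 counts. Without exclusion by Mlana and Trpm1 they were 582 of 9548. Without exclusion genes they were 1619 of 12433, and 1672 of 11978 without them at 5000 UMIs or more. Fewer genes reach the minimum after thinning and more do without exclusion, and the rest of the cause was not tested. Lists with a median above 0 numbered 14, and 9 at a marker share of at least 1%. The log2 ratio of the RPE share was -0.06, and -0.70 with the stricter filter of 1000 UMIs, 500 genes and 10% mitochondrial UMIs, -0.41 without exclusion genes and -0.57 without Mlana and Trpm1. Without exclusion genes 7 of 30 named genes turned: Gm42418 to -0.19, Camk1d to -0.17, Guca1b to -0.38, Grk1 to -0.60, Rtbdn to -0.67, Gm45895 to 0.076 and Ankfn1 to 0.11. At 5000 UMIs or more 8 turned: Cmss1 to -0.16, Gm42418 to -0.51, Camk1d to -0.43, Guca1b to -0.74, Grk1 to -1.06, Rtbdn to -1.29, Gm45895 to 0.066 and Ankfn1 to 0.11. The cause was not tested. In the other 11 settings 0 of 30 turned. Of these 30, the genes whose value left its own interval without turning numbered 25 without exclusion by Mlana and Trpm1, 21 without exclusion genes, 20 without them at 5000 UMIs or more, 15 at 1% rod RNA or less, 12 after thinning, 9 with cells weighted equally, 9 without the deepest cell, 5 with the stricter filter, 5 at a marker share of at least 1%, 4 at 1% interferon and antigen RNA or less, 1 with median-of-ratios scaling, and 0 with another total or without shared barcodes. Fhit, for example, stood at -2.69 and at -0.84 without exclusion by Mlana and Trpm1. The planned limit of 0.1% interferon and antigen UMIs left no cells and was replaced by 1%. That limit, the deepest cell of each library left out, the removal of Mlana and Trpm1, the 5000 UMIs and the shared barcodes were chosen after seeing the data.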

Other observations

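Of the genes picked here after their values were seen, 4 of short span were at least 2-fold lower in the library labelled sponge in both sets of cells. They encode ribosomal proteins. The other ribosomal protein genes were not summarised, so these 4 do not stand for the family. In the RPE cells Rpl37a stood at 866 and 425 CPM, Rpl35 at 376 and 173 CPM, Rps28 at 529 and 242 CPM and Rpl39 at 816 and 359 CPM, with log2 ratios of -1.02, -1.11, -1.12 and -1.18, and of -1.01, -1.29, -1.16 and -1.31 in all marker-bearing cells. Their genomic spans of 2.52 to 5.54 kb set them apart from most lower genes. Also lower in both sets, and picked likewise, were Nrxn3, a presynaptic adhesion gene, at 948 and 251 CPM, and Lsamp, another adhesion gene, at 463 and 188 CPM. On the higher side in both sets stood Glmp, a lysosomal membrane glycoprotein, at 34.2 and 74.8 CPM, Spint2, an inhibitor of serine proteases, at 72.1 and 147 CPM, and Tuba4a, an alpha tubulin, at 40.3 and 92.7 CPM. The haemoglobin gene Hbb-bs stood at 30.5 and 83.7 CPM, with near-identical copies among which the division of reads is uncertain.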
